A study of Mus musculus with 18 samples.

Results

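The mitochondrial genome of the mouse carries 37 genes, and all of them were followed here as the rows of the deposited count table that lie on the chromosome named MT, 37 of the 54532 genes listed. They comprise 13 protein-coding genes, 2 ribosomal RNA (rRNA) genes and 22 transfer RNA (tRNA) genes, and they were taken by chromosome name alone. The samples were whole larynges of male mice of the inbred strain C57BL6/J, 8 to 9 weeks old, profiled as 6 libraries in each of 3 groups. One group breathed smoke of the 3R4F research cigarette, one breathed aerosol of a JUUL Virginia tobacco e-cigarette, and the control group breathed room air. All were placed in a whole-body chamber for 1 hour a day on 5 days a week over 4 weeks. No label ties a library to a single animal, so the p-values reflect variation among libraries, which may be technical.

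Each mitochondrion holds many copies of a small circular genome, which nuclear-encoded proteins copy into long precursor RNAs from both strands. The tRNAs lie between the longer genes and are cut out of the precursors, which releases the messenger RNAs (mRNAs) and rRNAs. The proteins made are core subunits of the respiratory chain, namely the proton-pumping NADH dehydrogenase (complex I), cytochrome b of complex III, the oxygen-reducing cytochrome c oxidase (complex IV) and the membrane part of ATP synthase (complex V). All other subunits, and the machinery for transcription, RNA processing and translation, are encoded in the nucleus, and muscle is among the tissues richest in these transcripts.

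Some stretches of the mitochondrial genome also exist as copies in the nuclear genome, and these bear on how reads can be assigned. On chromosome 1, between positions 24611535 and 24616197 of the build GRCm38, 7 annotated pseudogenes on the minus strand match consecutive mitochondrial genes. They are Gm29216 (last 483 bases of mt-Co1, 1 mismatch), Gm28661 (mt-Co2, 681 bases, 0 mismatches), Gm10925 (mt-Atp6, 678 bases, 0 mismatches) and Gm28437 (mt-Co3, 783 bases, 0 mismatches), followed by Gm28438 (mt-Nd3, 345 bases, 1 mismatch), Gm10222 (mt-Nd4l, 294 bases, 0 mismatches) and Gm28439 (first 876 bases of mt-Nd4, 0 mismatches). The first 120 bases of mt-Co2 show such an identical stretch, those of mt-Nd3 hold the 1 base, in capitals, by which that gene and its copy differ, and a more diverged copy of mt-Co1 on chromosome 2, Gm13340, is shown with its mismatches in capitals. Transcript sequences are from GENCODE M21 (GRCm38) and are given 5′ to 3′.
mt-Co2 and Gm28661, shared: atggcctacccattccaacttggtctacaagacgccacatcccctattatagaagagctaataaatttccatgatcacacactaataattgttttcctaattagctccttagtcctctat
mt-Nd3: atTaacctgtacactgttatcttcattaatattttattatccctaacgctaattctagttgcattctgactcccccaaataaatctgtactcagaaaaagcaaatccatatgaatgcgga
Gm28438: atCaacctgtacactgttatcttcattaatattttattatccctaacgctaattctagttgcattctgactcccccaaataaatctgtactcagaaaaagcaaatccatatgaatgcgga
mt-Co1, bases 1174 to 1293: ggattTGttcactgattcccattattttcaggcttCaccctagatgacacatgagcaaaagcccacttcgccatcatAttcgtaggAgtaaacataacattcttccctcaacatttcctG
Gm13340: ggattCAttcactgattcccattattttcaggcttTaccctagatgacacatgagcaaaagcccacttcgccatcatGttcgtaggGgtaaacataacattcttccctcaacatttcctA

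The tRNA genes are short, 59 to 75 bases, and 8 of the 22 are read from the minus strand. The 7 shown are those to which the results below return. Capitals mark the anticodon, found as the loop between paired stem bases, and 2 tRNAs in which no such stem was found are in lower case throughout.
mt-Tp (proline), highest of the tRNAs per length: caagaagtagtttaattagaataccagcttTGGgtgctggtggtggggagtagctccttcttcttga
mt-Tc (cysteine), the member whose e-cigarette and air libraries did not overlap: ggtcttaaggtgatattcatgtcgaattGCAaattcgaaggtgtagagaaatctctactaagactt
mt-Te (glutamate), next to mt-Nd6: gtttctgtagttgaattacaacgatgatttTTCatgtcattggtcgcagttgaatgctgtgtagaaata
mt-Tw (tryptophan), the largest e-cigarette fold change: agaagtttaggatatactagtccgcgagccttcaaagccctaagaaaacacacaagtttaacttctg
mt-Th (histidine), first of 3 adjacent tRNAs high in 1 library: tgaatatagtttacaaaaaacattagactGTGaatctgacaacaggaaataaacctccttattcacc
mt-Ts2 (serine), the second of these: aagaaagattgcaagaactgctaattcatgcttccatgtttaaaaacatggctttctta
mt-Tl2 (leucine), the third: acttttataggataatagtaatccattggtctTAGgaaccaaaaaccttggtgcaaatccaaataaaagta

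Levels per length differed widely between the members. Over the 18 libraries, mt-Co1 (ENSMUSG00000064351, MT 5328 to 6872, plus strand), the catalytic core subunit of complex IV, averaged 14488 CPM per kb (library-size-scaled counts per M counts and per kilobase of gene), the highest of the 37. It alone took 41.8% of all counts assigned to the mitochondrial genome. Cytochrome b (mt-Cytb, ENSMUSG00000064370, MT 14145 to 15288) averaged 7588 CPM per kb. Complex I genes followed with 5951 for mt-Nd1, 4246 for mt-Nd2, 3137 for mt-Nd4, 2866 for mt-Nd6 and 2590 CPM per kb for mt-Nd5. These 7 protein genes therefore spanned 2590 to 14488 CPM per kb.

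The other 6 protein-coding genes formed a second class far below them. mt-Co2, mt-Atp6 and mt-Co3 averaged 155, 144 and 139 CPM per kb, and mt-Nd4l, mt-Nd3 and mt-Atp8 averaged 58.1, 42.6 and 37.5. Within complex IV, mt-Co1 stood 93.5-fold above mt-Co2 and 104-fold above mt-Co3 on this per-length scale, although all encode subunits of one enzyme. Complex V, whose mitochondrial subunits are Atp6 and Atp8, gave 0.197% of the mitochondrial counts in all libraries together. The 6 low genes lie side by side on the genome between mt-Co1 and mt-Nd4, and together made up 0.622% to 0.697% of mitochondrial mRNA counts in smoke libraries, 0.291% to 0.808% in e-cigarette libraries and 0.696% to 0.881% in air libraries.

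The rRNAs of the small and large mitochondrial ribosomal subunits, mt-Rnr1 (ENSMUSG00000064337, MT 70 to 1024) and mt-Rnr2 (ENSMUSG00000064339, MT 1094 to 2675), averaged 600 and 472 CPM per kb. They made up 2.45% of the mitochondrial counts, and mt-Nd1 next to them was 9.91-fold above mt-Rnr1 in counts per length. These are levels in the libraries and need not be those in the cells. How RNA selection in library preparation bears on rRNA against mRNA counts was not tested. The tRNAs made up 0.271%, and 94.3% of their counts fell on the 8 tRNA genes of the minus strand, with mt-Tp at 1074 CPM per kb. Most of these were on mt-Tp (22902 counts), mt-Tn (9773) and mt-Tc (6696). mt-Ts1, mt-Ta and mt-Tq of the same strand had 12, 70 and 86 counts. The library kit named in the labels does not mark strand, so reads of a minus-strand gene and of a precursor of the opposite strand cannot be told apart. Reads on a tRNA gene may also come from a cut-out tRNA or from an uncut precursor, and these were not separated. The tRNA values below are therefore counts on the tRNA genes. In 9 neighbouring pairs the annotated genes share bases, up to 43 between mt-Atp8 and mt-Atp6, and mt-Nd5 and mt-Nd6 share 14 on opposite strands. Of the 22 tRNAs, 15 had too few counts to be tested (0 to 300 in all 18 libraries), and mt-Tf and mt-Tk had 0 in every library. Among these, mt-Tm (methionine) had 51, 73 and 43 counts in the smoke, e-cigarette and air groups, and mt-Tq (glutamine) had 36, 35 and 15. The e-cigarette sums were 50 and 15 without replicate 5, which stood apart as described below.

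**Figure D1:**
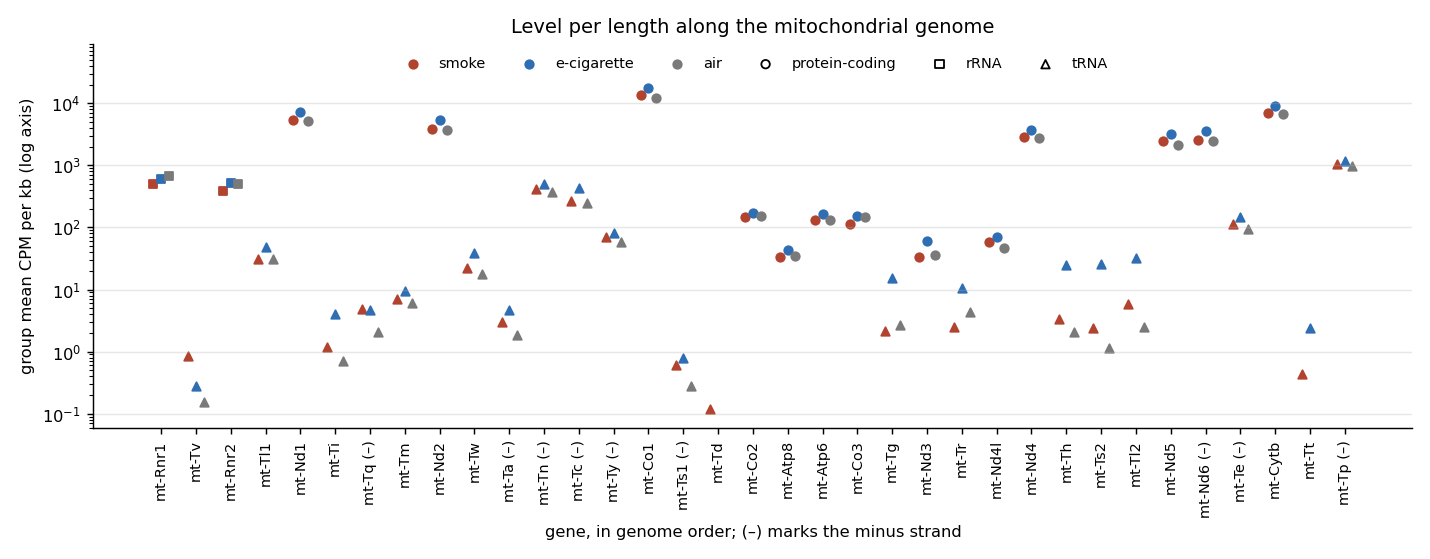
Group mean level of each mitochondrial gene with a count, in CPM per kb on a log axis, in genome order, for smoke, e-cigarette and air libraries (6 each); circles are protein-coding genes, squares rRNAs, triangles tRNAs, and a group mean of 0 is not drawn. From mt-Co2 to mt-Nd4l the group means of the protein-coding genes run from 32.9 CPM per kb (mt-Nd3, smoke) to 168 (mt-Co2, e-cigarette), and those of the other 7 from 2140 (mt-Nd5, air) to 17617 (mt-Co1, e-cigarette).

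The low class overlapped closely with the genes that have nuclear copies. Of all 100-base windows of the member, 99.5% of those of mt-Co2 and of mt-Atp6, 99.9% of mt-Co3, 97.6% of mt-Nd3 and 98.5% of mt-Nd4l also occur letter for letter in an annotated nuclear transcript. The shares were 60.8% for mt-Nd4, 30.8% for mt-Co1, 3.19% for mt-Nd2 and 0 for mt-Nd1, mt-Nd5, mt-Nd6, mt-Cytb and both rRNAs. mt-Atp8 is the exception, low at 37.5 CPM per kb with 0 such windows. On chromosome 1 the annotated copies of its neighbours are 233 bases apart, and the matching parts of mt-Co2 and mt-Atp6 are also 233 bases apart on MT, but that nuclear stretch is in no annotated transcript searched.

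Counts assigned to the copies were of the same order as those of the low members. Gm28661 received 12088 counts in smoke, 14526 in e-cigarette and 12640 in air libraries, and mt-Co2, of the same sequence, received 10532, 12897 and 10486. For mt-Co3 the sums were 9552 in smoke, 13387 in e-cigarette and 11953 in air, and for its copy Gm28437 9448, 13463 and 9592. By contrast, Gm28439 had 4738, 5804 and 4616 counts in smoke, e-cigarette and air, and mt-Nd4, only part of which is copied, had 413101, 576869 and 391875. The more diverged copy Gm13340 had 4736 counts in all 18 libraries together. How reads that match several places were treated in the counting is not given in the sources used here, and its part in the low levels was not tested. The levels of mt-Co2, mt-Atp6, mt-Co3, mt-Nd3 and mt-Nd4l are therefore uncertain, and those of mt-Nd4 and mt-Co1 in part.

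**Figure D2:**
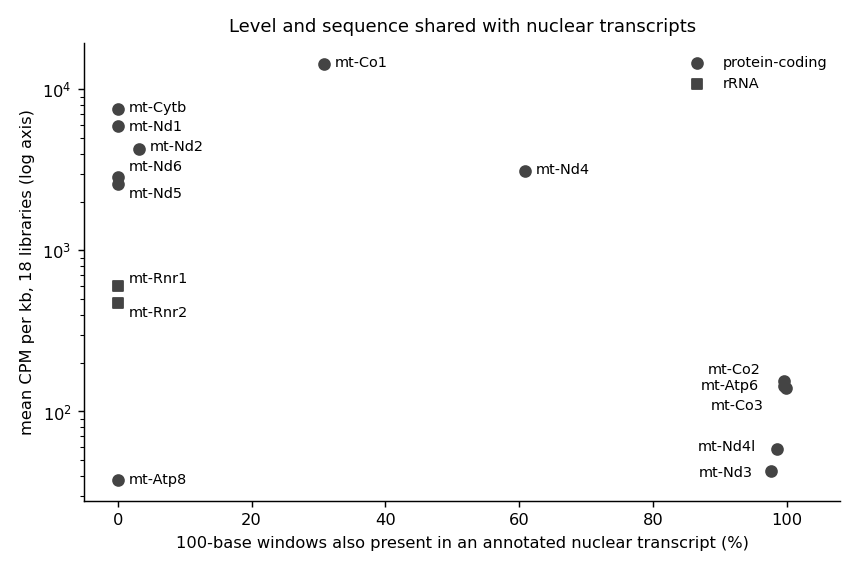
Mean level of the 13 protein-coding and 2 rRNA genes over 18 libraries (CPM per kb, log axis) against the percent of their 100-base windows that occur in an annotated nuclear transcript. The 5 genes above 97% lie at 155 CPM per kb or lower, as does mt-Atp8 at 0%.

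Total counts were 15.9 to 20.3 M in smoke, 16.7 to 22.5 M in e-cigarette and 15.6 to 17.1 M in air libraries, and 17537 genes had enough counts to be tested. Thyroglobulin (Tg), the storage protein of the thyroid gland that adjoins the larynx, made up 5.87% to 9.24% of counts in smoke, 0.00795% to 2.77% in e-cigarette and 6.13% to 10.2% in air libraries, and was lowest in e-cigarette replicates 2, 4, 5 and 6. Markers of muscle, cartilage, squamous epithelium, ciliated cells, glands and fat were all present, with no marker of these lists at 0 in every library.

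One library stood apart in its mitochondrial transcripts. Measured per mitochondrial mRNA count, e-cigarette replicate 5 was the highest or the lowest of all 18 libraries for 19 of the 32 members with at least 15 counts in total, and the next library, smoke replicate 5, was so for 7. Of the low genes, mt-Co2 had 669 counts in e-cigarette replicate 5 and 1522 to 3108 in the other 17 libraries, and mt-Atp8 had 57 against 105 to 231. The adjacent mt-Nd3 went the other way, with 837 counts against 149 to 345. This library was singled out after its values were seen.

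Some of the tRNAs moved in blocks in the same library. mt-Th, mt-Ts2 and mt-Tl2, which lie in a row between mt-Nd4 and mt-Nd5, had 152, 138 and 198 counts, and 488 together against 0 to 33 in each of the other 17 libraries. It thus held 70.7% of the counts of these 3 tRNAs. mt-Tg and mt-Tr, on either side of mt-Nd3, had 83 and 37 counts against at most 7 and 10 elsewhere. The adjacent mt-Ti, mt-Tq and mt-Tm had 20, 20 and 23 counts against at most 6, 11 and 14. mt-Tn, the tRNA for asparagine, was low instead, at 243 counts against 309 to 915. Its neighbour mt-Tc was high, at 725 counts against 214 to 711, and the nearby mt-Ta and mt-Ty lay within the range of the other libraries. Of the 7 copies, 5 had fewer counts than in any other library, for example 748 for Gm28661 against 1670 to 3629. Gm10925, the copy of mt-Atp6, had 2611 counts, within the 1598 to 3740 of the others, and Gm28438, the copy of mt-Nd3, had 74, within 73 to 199. The mitochondrial share of this library was the highest of all at 7.60%, and the group's share, complex sums and calls below are given with and without it.

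**Figure D3:**
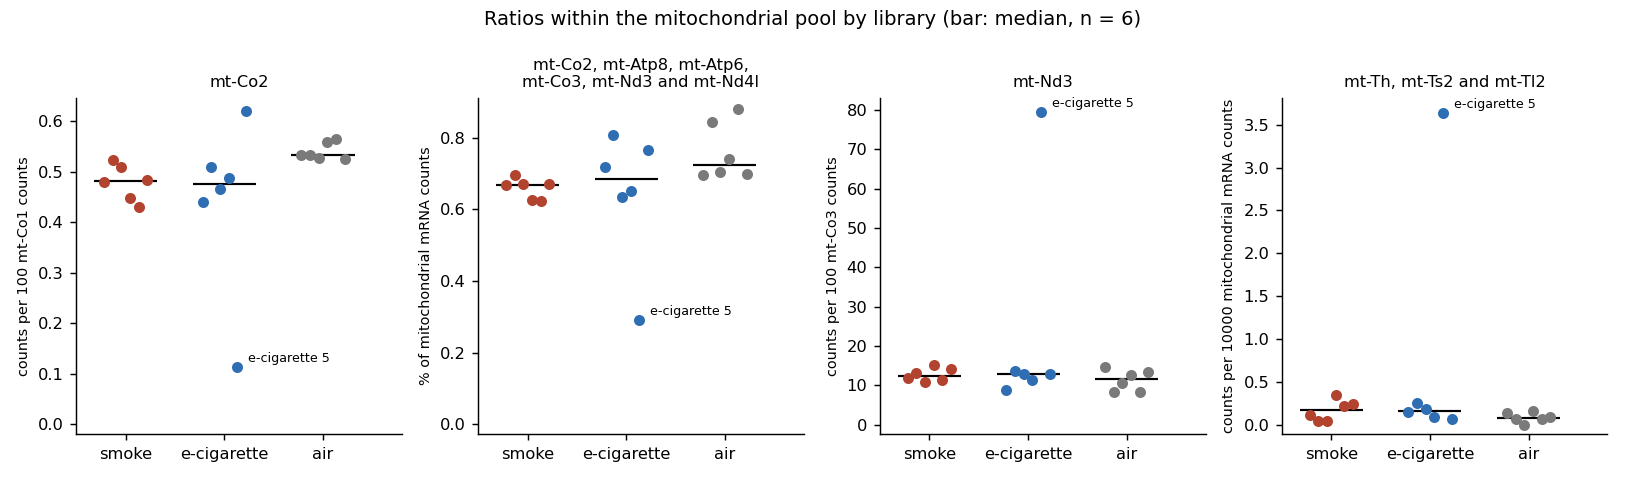
Ratios within the mitochondrial counts for each library of the smoke, e-cigarette and air groups (points, 6 each; bars are group medians). E-cigarette replicate 5 is lowest in the mt-Co2 ratio (0.114 per 100 mt-Co1 counts) and in the share of the 6 low genes (0.291%), and highest in the mt-Nd3 ratio (79.5 per 100 mt-Co3 counts) and in the 3 tRNAs (3.63 per 10000 mRNA counts).

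The share of all counts that came from the mitochondrial genome was higher in e-cigarette libraries than in the other groups, with overlap. It was lowest at 4.66%, median 4.83% and highest at 5.19% in smoke libraries. In e-cigarette libraries it was 4.97%, 6.25% and 7.60%, and in air libraries 4.18%, 4.71% and 6.09%. Means were 4.89% ± 0.235 in smoke, 6.27% ± 0.966 in e-cigarette and 4.85% ± 0.654 in air (SD, n = 6 each), and the e-cigarette mean was 6.00% ± 0.796 without replicate 5 (SD, n = 5). E-cigarette replicate 3 lay within the smoke range, and air replicate 5 within the e-cigarette range. With Tg counts left out of the total, the means were 5.28% in smoke, 6.33% in e-cigarette and 5.25% in air. In a whole organ, fewer cells of a type and less RNA per cell cannot be told apart, and this holds for every difference below.

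The shares of complexes I, III and IV in the mRNA pool overlapped between groups. They rest on the 7 high genes and do not describe the low class. Per 100 mt-Co1 counts, mt-Co2 ran 0.431 to 0.524 in smoke, 0.114 to 0.621 in e-cigarette and 0.525 to 0.565 in air libraries. The 0.114 was replicate 5, and the next e-cigarette library had 0.440. mt-Co2 itself was not called in smoke versus air (log2 fold change -0.04, adjusted p = 0.938, edgeR). The level of mt-Co2 is uncertain, as given above. Complex I genes supplied 38.3% to 40.4% of mitochondrial mRNA counts in smoke, 39.1% to 41.0% in e-cigarette and 39.4% to 39.9% in air libraries. Complex IV genes, almost wholly mt-Co1, supplied 42.3% to 46.2% in smoke, 41.7% to 44.1% in e-cigarette and 42.4% to 43.3% in air. The single complex III gene supplied 15.4% to 17.1% in smoke, 15.5% to 17.0% in e-cigarette and 16.6% to 17.5% in air. Complex sums, as CPM with library sizes scaled by TMM (trimmed mean of M values), were 18804 ± 1003, 25348 ± 4141 and 17853 ± 1432 for complex I in smoke, e-cigarette and air (SD, n = 6 each), and 21080 ± 956, 27452 ± 4954 and 19264 ± 1619 for complex IV. Without replicate 5 the e-cigarette sums were 24146 ± 3256 for complex I and 26129 ± 4189 for complex IV (SD, n = 5).

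**Figure D4:**
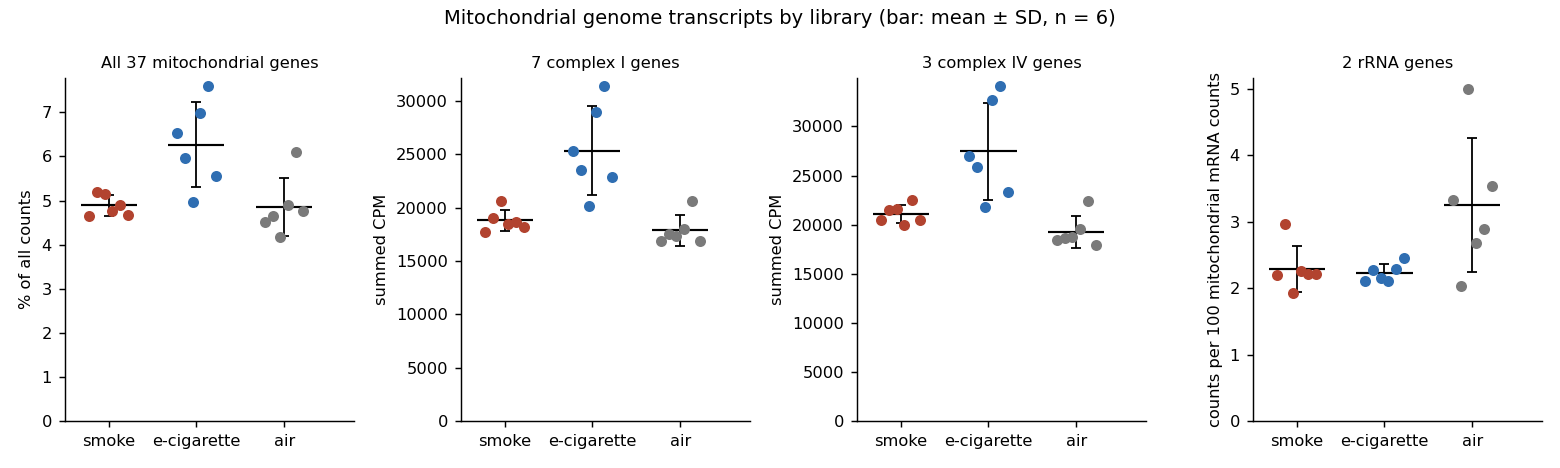
Each library's percent of counts from the 37 mitochondrial genes, summed CPM of the complex I and complex IV genes, and rRNA counts per 100 mitochondrial mRNA counts, for smoke, e-cigarette and air (points, 6 each; bars are means ± SD). E-cigarette libraries reach 7.60% of counts and air libraries 6.09%, and the rRNA ratio reaches 5.01 in air and 2.46 in e-cigarette libraries.

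In e-cigarette larynges most mitochondrial complex I mRNAs, mt-Cytb and mt-Co1 were higher than in air larynges. Of the 22 members tested, 15 were called higher and 0 lower (adjusted p below 0.05, edgeR quasi-likelihood F test with Benjamini-Hochberg adjustment over all tested genes). Among all 17537 genes 25.1% were called in either direction and 12.1% were called higher in e-cigarette, so calls were common in this comparison. The median log2 fold change was 0.49 over the 22 members and 0.01 over all genes tested. By role, 7 of 7 complex I genes, 1 of 1 complex III gene, 1 of 3 complex IV genes, 0 of 2 complex V genes, 0 of 2 rRNAs and 6 of 7 tRNAs were called higher. Of the 7 complex I calls, that of mt-Nd3 was lost without e-cigarette replicate 5 (log2 fold change 0.74 with it and 0.28 without).

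Complex I is the entry point of electrons from NADH, and its mitochondrial subunits form the proton-pumping membrane arm. mt-Nd2 (ENSMUSG00000064345, MT 3914 to 4951) had 4244 CPM in the lowest e-cigarette library, a median of 5240 and 6661 in the highest, against 3572, 3740 and 4326 in air. All but 1 of the e-cigarette libraries lay above the air range, and the log2 fold change was 0.53 (SE 0.11, adjusted p = 0.00141, edgeR).
mt-Nd1 (ENSMUSG00000064341, MT 2751 to 3707) ran 5607, 6849 and 7881 CPM in e-cigarette libraries and 4592, 4877 and 6061 in air (log2 fold change 0.47, SE 0.10, adjusted p = 0.00210, edgeR). The groups overlapped through the lowest e-cigarette library and air replicate 5.

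mt-Nd4 (ENSMUSG00000064363, MT 10167 to 11544) gave 4054, 5117 and 6476 CPM in e-cigarette and 3504, 3691 and 4721 CPM in air as lowest, median and highest, with a log2 fold change of 0.43 (SE 0.11, adjusted p = 0.00590, edgeR). mt-Nd5 (ENSMUSG00000064367, MT 11742 to 13565) gave 4203, 5722 and 7922 CPM in e-cigarette and 3615, 3865 and 4234 in air, a log2 fold change of 0.58 (SE 0.14, adjusted p = 0.00344, edgeR). For both genes 5 of the 6 e-cigarette libraries exceeded all air libraries.
mt-Nd6 (ENSMUSG00000064368, MT 13552 to 14070) is the only protein gene annotated on the minus strand, though without strand marking its reads cannot be told apart from those of the opposite precursor. Its lowest, median and highest values were 1399, 1720 and 2592 CPM in e-cigarette and 1159, 1271 and 1401 CPM in air. The log2 fold change of 0.56 (SE 0.12, adjusted p = 0.00264, edgeR) lay within the range of the other complex I genes, and again all but the lowest e-cigarette library lay above the air range.

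The other 2 complex I genes belong to the low class. mt-Nd4l (ENSMUSG00000065947, MT 9877 to 10173) had 14.0, 18.1 and 30.8 CPM in e-cigarette and 10.2, 14.2 and 16.3 in air (log2 fold change 0.61, SE 0.19, adjusted p = 0.0249, edgeR). 5 of its 6 e-cigarette libraries were above the air range. The call was lost in 4 of the 18 fits that leave out 1 library (without e-cigarette replicate 2 or 4 or air replicate 2 or 6, adjusted p 0.0510 to 0.0839, edgeR). mt-Nd3 (ENSMUSG00000064360, MT 9459 to 9806) had 12.2, 16.0 and 48.3 CPM in e-cigarette and 9.54, 12.2 and 15.9 in air, where the 48.3 is replicate 5 and 3 e-cigarette libraries exceeded the air range. Its log2 fold change of 0.74 (SE 0.26, adjusted p = 0.0437, edgeR) became 0.28 without e-cigarette replicate 5 (adjusted p = 0.138), so the size of the rise rests on 1 library. The call was lost in 12 of the 18 fits, also in fits that kept this library.

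Cytochrome b, the complex III subunit that passes electrons from ubiquinol, followed the high complex I genes. mt-Cytb had 8442, 10094 and 12333 CPM in e-cigarette and 7343, 7480 and 9087 in air, with a log2 fold change of 0.43 (SE 0.10, adjusted p = 0.00475, edgeR). In complex IV, mt-Co1 had 21623, 26168 and 33970 CPM in e-cigarette and 17724, 18450 and 22057 CPM in air (log2 fold change 0.52, SE 0.11, adjusted p = 0.00242, edgeR). For each of these genes, 5 of 6 e-cigarette libraries were above the highest air library, and the lowest was not.

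The remaining protein genes did not pass the test with all libraries. mt-Co2 (ENSMUSG00000064354, MT 7013 to 7696), which holds the copper centre that accepts electrons from cytochrome c, ran 38.6 to 158 CPM in e-cigarette and 93.0 to 125 CPM in air (log2 fold change 0.15, SE 0.21). mt-Co3 (ENSMUSG00000064358, MT 8607 to 9390) ran 60.7 to 185 CPM in e-cigarette and 85.9 to 194 CPM in air (0.03, SE 0.23). In complex V, mt-Atp6 (ENSMUSG00000064357, MT 7927 to 8607), the proton channel subunit and the highest of this complex per length, ran 60.5, 112 and 172 CPM in e-cigarette and 80.4, 88.6 and 104 CPM in air, a log2 fold change of 0.31 (SE 0.17, adjusted p = 0.180, edgeR). mt-Atp8 (ENSMUSG00000064356, MT 7766 to 7969) ran 3.29 to 13.5 CPM in e-cigarette and 6.13 to 7.68 CPM in air (0.32, SE 0.22). Replicate 5 was the lowest e-cigarette library for all 4. Without it, mt-Co2 (0.32, adjusted p = 0.0392), mt-Atp6 (0.42, adjusted p = 0.0235) and mt-Atp8 (0.47, adjusted p = 0.0296) passed the edgeR test. A call for these genes thus depended on whether that library was in the fit.

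The rRNAs were not called in either direction. mt-Rnr1 had 455, 593 and 676 CPM in e-cigarette and 404, 654 and 923 CPM in air as lowest, median and highest (log2 fold change -0.15, SE 0.15, adjusted p = 0.498, edgeR). mt-Rnr2 had 634, 774 and 1163 CPM in e-cigarette and 493, 792 and 1252 CPM in air (log2 fold change 0.05, SE 0.18, adjusted p = 0.875, edgeR). For both, the e-cigarette libraries lay inside the air range, which was the widest of the 3 groups. Set against the mRNAs of the same library, rRNA counts per 100 mitochondrial mRNA counts were 2.10, 2.22 and 2.46 in e-cigarette and 2.04, 3.11 and 5.01 in air, where air replicate 3 was the highest.

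Among tRNAs, mt-Tc (ENSMUSG00000064349, MT 5192 to 5257) was the one member whose groups did not overlap, with 21.8, 24.2 and 41.8 CPM in e-cigarette and 12.2, 16.5 and 20.4 CPM in air. Over all genes tested, groups did not overlap in 10.5%. Its log2 fold change was 0.79 (SE 0.17, adjusted p = 0.00163, edgeR). mt-Te (ENSMUSG00000064369, MT 14071 to 14139) had 7.22, 10.6 and 12.1 CPM in e-cigarette and 5.63, 6.75 and 7.35 CPM in air (log2 fold change 0.62, SE 0.16, adjusted p = 0.00646, edgeR), and only the lowest e-cigarette library fell inside the air range. The largest log2 fold change of the 22, 1.07 (SE 0.32, adjusted p = 0.0194, edgeR), was that of mt-Tw (ENSMUSG00000064346, MT 4950 to 5016), at 1.52, 2.75 and 3.40 CPM in e-cigarette and 0.689, 1.24 and 1.86 CPM in air. It starts inside the last 2 bases of mt-Nd2, so reads across that boundary can belong to either gene.

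mt-Tp (ENSMUSG00000064372, MT 15356 to 15422), the highest tRNA per length, had 65.5, 78.5 and 100 CPM in e-cigarette and 58.3, 64.0 and 70.5 CPM in air, with 4 of 6 e-cigarette libraries above the air range. Its log2 fold change was 0.30 (SE 0.10, adjusted p = 0.0342, edgeR), the smallest of the called members. mt-Tl1 (leucine) was called at 0.66, with 2.73 to 5.65 CPM in e-cigarette and 1.21 to 3.46 CPM in air, and mt-Ty (tyrosine) at 0.53, with 4.47 to 6.39 CPM in e-cigarette and 3.39 to 5.04 CPM in air. mt-Tn, at 14.0 to 47.9 CPM in e-cigarette and 17.6 to 33.4 CPM in air, was not called (0.45, SE 0.21, adjusted p = 0.135, edgeR). The calls of mt-Tl1, mt-Ty and mt-Tp were lost in 11, 12 and 11 of the 18 fits without 1 library, that of mt-Tw only without e-cigarette replicate 5 (adjusted p = 0.0521, edgeR), and mt-Tn was called without that library (adjusted p = 0.00716). Called with all libraries and in each of the 18 fits were 9 members, namely mt-Nd1, mt-Nd2, mt-Nd4, mt-Nd5, mt-Nd6, mt-Cytb, mt-Co1, mt-Tc and mt-Te. Without e-cigarette replicate 5 the count was 14, with 5 calls lost and 4 gained.

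Smoke larynges showed no called difference from air larynges in any of the 22 members. The same edgeR test called 1.59% of all genes in this comparison. DESeq2 and voom also called 0 members, and 2, the rRNAs, had an unadjusted edgeR p below 0.05. The median log2 fold change was 0.05 over the members and 0.01 over all genes, with 15 of 22 above 0. mt-Rnr1 had 438, 459 and 647 CPM in smoke and 404, 654 and 923 CPM in air, a log2 fold change of -0.42 (SE 0.15, adjusted p = 0.138, edgeR). 5 of the 6 smoke libraries lay close together and replicate 2 was the 647. mt-Rnr2 had 545, 578 and 789 CPM in smoke and 493, 792 and 1252 CPM in air (log2 fold change -0.39, SE 0.18, adjusted p = 0.222, edgeR). Without air replicate 2, mt-Rnr1 was called lower in smoke (-0.52, adjusted p = 0.0416, edgeR).

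The mRNAs of smoke and air libraries lay close together. mt-Co1 had 19812, 20768 and 22372 CPM in smoke and 17724, 18450 and 22057 CPM in air (log2 fold change 0.13, SE 0.11, adjusted p = 0.541, edgeR). mt-Nd2 had 3521, 3903 and 4380 CPM in smoke and 3572, 3740 and 4326 CPM in air, a log2 fold change of 0.04 (SE 0.11). For mt-Cytb, smoke libraries ran 7513, 7780 and 8747 CPM and air libraries 7343, 7480 and 9087, a log2 fold change of 0.03 (SE 0.10). With an SE of this size, differences as small as these were not detectable, and a p that misses the threshold does not show that levels were equal. Complex IV as a whole supplied at most 46.2% of mRNA counts in smoke and at most 43.3% in air, but the ranges overlapped. Complex I log2 fold changes ran -0.11 (mt-Nd3) to 0.34 (mt-Nd4l), and those of tRNAs 0.00 (mt-Tl1) to 0.31 (mt-Tw).

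Smoke against e-cigarette gave 9 members called lower and 0 higher of 22, where 6.1% of all genes were called lower and 16.5% in either direction. The median log2 fold change was -0.40 over the members and -0.01 over all genes, and 22 of 22 members were below 0. This comparison and the e-cigarette against air comparison share the 6 e-cigarette libraries, so their values stand side by side and are not independent. The called members were mt-Nd1, mt-Nd2, mt-Nd3, mt-Nd4, mt-Nd5, mt-Nd6, mt-Cytb, mt-Co1 and mt-Tc, of which mt-Nd1, mt-Nd2, mt-Nd4, mt-Nd6, mt-Cytb and mt-Tc were called in each of the 18 fits without 1 library.

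mt-Nd2 had the smallest adjusted p of these, with 3521, 3903 and 4380 CPM in smoke and 4244, 5240 and 6661 CPM in e-cigarette (log2 fold change -0.49, SE 0.11, adjusted p = 0.00480, edgeR), and 5 of 6 smoke libraries lay below the e-cigarette range. mt-Tc had 15.9, 17.8 and 19.4 CPM in smoke and 21.8, 24.2 and 41.8 CPM in e-cigarette, without overlap (log2 fold change -0.70, SE 0.17, adjusted p = 0.00684, edgeR). Groups did not overlap in 9.37% of all genes tested. mt-Nd1 differed by -0.42 (SE 0.10, adjusted p = 0.00778, edgeR), with 4778, 5025 and 5731 CPM in smoke and 5607, 6849 and 7881 CPM in e-cigarette. Only the highest smoke library reached the e-cigarette range.

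mt-Cytb (log2 fold change -0.40), mt-Nd4 (-0.41) and mt-Nd6 (-0.47) had adjusted p of 0.0121, 0.0138 and 0.0131 in the edgeR test. mt-Nd6 had 1164, 1331 and 1481 CPM in smoke and 1399, 1720 and 2592 CPM in e-cigarette, and 4 of 6 smoke libraries lay below the e-cigarette range. mt-Cytb spanned 7513 to 8747 CPM in the smoke libraries and 8442 to 12333 CPM in the e-cigarette libraries. mt-Nd4 spanned 3673 to 4251 CPM in the smoke libraries and 4054 to 6476 CPM in the e-cigarette libraries. mt-Co1, at 19812 to 22372 CPM in smoke and 21623 to 33970 CPM in e-cigarette (log2 fold change -0.38, SE 0.11, adjusted p = 0.0260, edgeR), lost its call in 4 fits (without e-cigarette replicate 4 or 5 or smoke replicate 4 or 6, adjusted p 0.0523 to 0.0685). mt-Nd5, at 3619 to 5188 CPM in smoke and 4203 to 7922 CPM in e-cigarette (-0.40, SE 0.14, adjusted p = 0.0459, edgeR), lost it in 12 fits, with adjusted p up to 0.132. mt-Nd3 (-0.85, SE 0.26, adjusted p = 0.0313, edgeR) was -0.40 without e-cigarette replicate 5 (adjusted p = 0.0480) and lost its call without smoke replicate 1, 3 or 5 (0.0622 to 0.0685). Without e-cigarette replicate 5 the count was 10, with mt-Atp6, mt-Atp8 and mt-Co2 gained and mt-Co1 and mt-Nd5 lost.

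**Figure D5:**
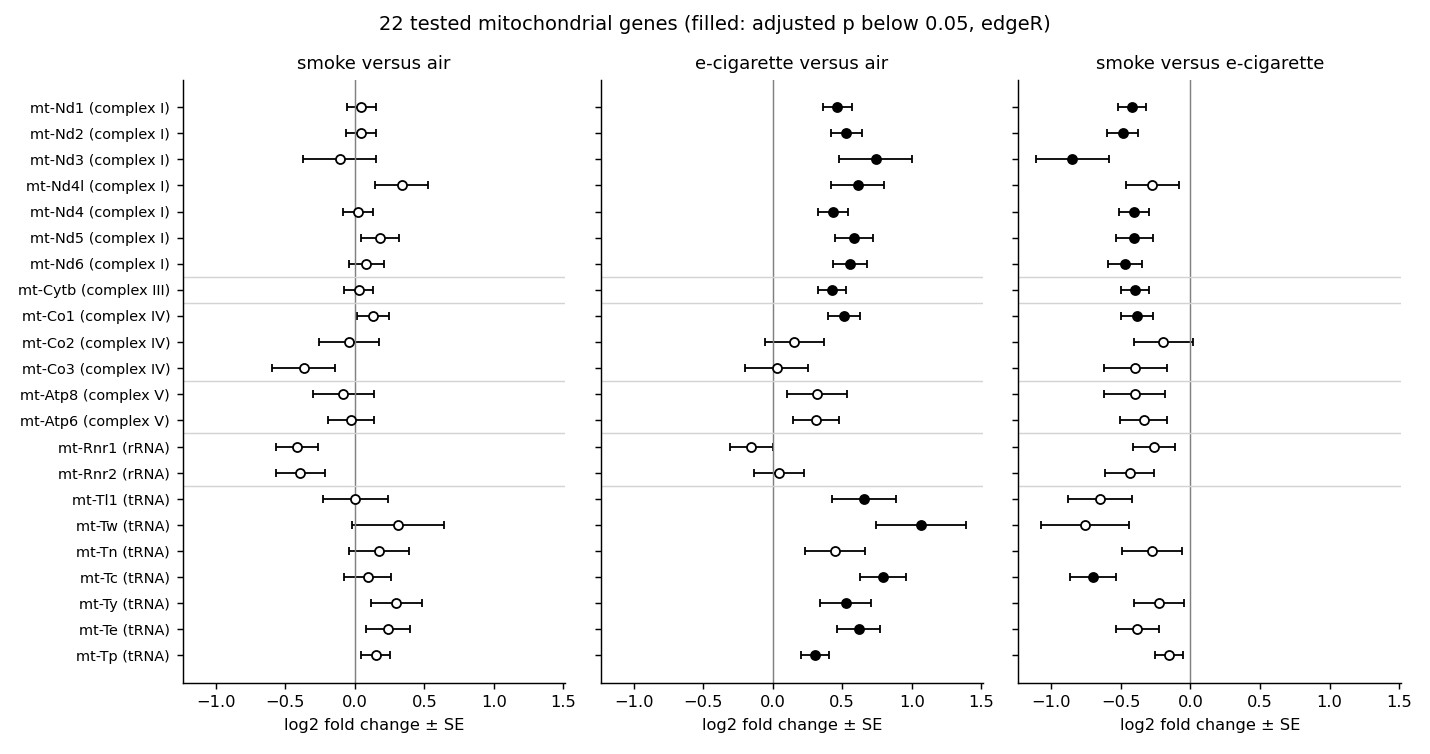
Log2 fold change ± SE (edgeR) of the 22 tested members, grouped by complex, rRNA and tRNA, in smoke versus air, e-cigarette versus air and smoke versus e-cigarette; filled points have adjusted p below 0.05 over all genes tested. In the middle panel 15 points are filled and the rRNAs lie at -0.15 and 0.05.

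When library sizes were taken from the mitochondrial protein-coding counts alone, the comparison asked which members changed relative to the mitochondrial mRNA pool. On that scale the median of all genes shifts to -0.46 in e-cigarette versus air, and 55.4% of all genes were called, so only ratios within the pool can be read. mt-Rnr1 (-0.64, SE 0.16, adjusted p = 0.00238, edgeR) and mt-Rnr2 (-0.46, SE 0.17, adjusted p = 0.0251, edgeR) were called lower relative to the mRNAs in e-cigarette, and 0 of the 20 others were called. Log2 values of the high mRNAs were between -0.06 (mt-Cytb) and 0.07 (mt-Nd5), and that of mt-Nd6 was 0.05. The high mRNAs supply nearly all of the counts used for this scaling, so as a set their values near 0 follow from it. In smoke versus air, with 0.279% of genes called on this scale, the rRNAs had -0.51 and -0.49 (adjusted p 0.147 and 0.176, edgeR), and 0 members were called. Smoke versus e-cigarette had 40.4% of genes and 0 members called. The rRNA-to-mRNA ratio of air libraries was spread widely (2.04 to 5.01 rRNA counts per 100 mRNA counts), and RNA quality values that could be set beside it are not used here.

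Some nuclear genes for the same complexes were also called higher in e-cigarette versus air, where 12.1% of all tested genes were called higher. Of 36 nuclear complex I genes 7 were called higher and 0 lower (median 0.16), for example Ndufs1 (0.58, adjusted p = 3.30e-05), the largest subunit, and Ndufa10 (0.42, adjusted p = 0.00196). Of 4 complex II genes, a complex with no mitochondrial gene, Sdha (0.45) and Sdhb (0.44) were called higher. Complex III had 2 of 9 higher, among them Uqcrc2 (0.42, adjusted p = 7.56e-04). Complex IV had 1 higher and 1 lower of 15, and these were the 2 isoforms of one subunit, the muscle form Cox6a2 (0.71, adjusted p = 0.00654) and the widely expressed form Cox6a1 (-0.61, adjusted p = 0.0347). Complex V had 4 of 15 higher, including Atp5b (0.41) and Atp5a1 (0.38), which form its catalytic head. All p are from the edgeR fit. In smoke versus air, Sdha (0.36, adjusted p = 0.0483) was the one called gene of these 5 lists. The share of all genes called was 1.59% there, and 6.1% were called lower in smoke versus e-cigarette. In smoke versus e-cigarette, 4 of 36 complex I, 1 of 4 complex II, 1 of 9 complex III, 1 of 15 complex IV and 2 of 15 complex V genes were called lower and 0 higher, Ndufs1 at -0.33 (adjusted p = 0.00722, edgeR).

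Some genes that act directly on mitochondrial transcripts were called. Of all genes tested, 12.1% were called higher in e-cigarette versus air and 6.1% lower in smoke versus e-cigarette. The share called higher in the RNA processing list was near the former. Lrpprc, which binds and stabilises mitochondrial mRNAs, was 93.1 ± 8.7 CPM in e-cigarette and 65.6 ± 6.2 CPM in air (SD, n = 6 each; log2 fold change 0.51, adjusted p = 1.19e-04, edgeR), and its partner Slirp did not pass the test (-0.17, adjusted p = 0.559). In the list of RNA processing and stability genes 5 of 41 were called higher in e-cigarette than in air and 0 lower, the others named by the rule being Mto1 (0.35) and Trub2 (0.39), which modify RNA bases, and Ptcd3 (0.25). In smoke versus e-cigarette 4 of 41 were called lower, Lrpprc at -0.32 (adjusted p = 0.00868, edgeR). In the transcription and nucleoid list 1 of 19 was called, Mterf2, a member of the transcription termination factor family (0.76, adjusted p = 5.80e-04, edgeR). The mitochondrial RNA polymerase Polrmt (log2 fold change -0.29), the packaging factor Tfam (0.13), the initiation factor Tfb2m (-0.08) and the elongation factor Tefm (0.16) had adjusted p of 0.108, 0.239, 0.556 and 0.402 in the edgeR test and did not pass.

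Mitochondrial ribosomal proteins, which assemble on the 2 rRNAs, had 2 higher and 2 lower of 77 tested in e-cigarette versus air (median 0.01). The share of all genes called in either direction was 25.1% in that comparison and 1.59% in smoke versus air. Mrps6 was lower in e-cigarette (18.8 ± 2.9 CPM) and in smoke (28.1 ± 5.2 CPM) than in air (45.4 ± 7.1 CPM; SD, n = 6 each), with log2 fold changes of -1.27 and -0.69 (adjusted p 4.00e-06 and 0.0189, edgeR). Trmt10c, a subunit of the nuclease that cuts the 5′ ends of mitochondrial tRNAs, was lower in smoke than in air (14.9 ± 0.88 against 19.9 ± 2.8 CPM, SD, n = 6 each; log2 fold change -0.42, adjusted p = 0.0309, edgeR), and it was the 1 called of 41 in its list there. Among 15 regulators of mitochondrial biogenesis, 3 were called higher and 3 lower in e-cigarette versus air, with the nuclear receptors Esrrg at 0.95 (adjusted p = 2.64e-04) and Esrrb at -1.08 (adjusted p = 0.00140), the kinase subunit Prkaa2 at 0.68 (adjusted p = 1.59e-04) and the coactivator Ppargc1b at 0.66 (adjusted p = 0.0119). The coactivator Ppargc1a did not pass (-0.12, adjusted p = 0.600).

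Lists for mitophagy and the mitochondrial stress response were mixed in e-cigarette versus air. Of all genes tested, 25.1% were called in that comparison and 12.1% were called higher, and 1.59% were called in smoke versus air. In mitophagy, the removal of damaged mitochondria, 2 of 13 were called higher (Bcl2l13 0.43, Pink1 0.35) and 4 lower, including the receptors Optn (-0.51, adjusted p = 1.18e-04, edgeR) and Sqstm1 (-0.40). In the stress response list 4 of 19 were higher, including the inner membrane protease Oma1 (0.47), and 2 lower, the secreted Gdf15 (-3.89, adjusted p = 9.67e-05, edgeR) and the transcription factor Ddit3 (-0.43). In smoke versus air, 0 of 13 mitophagy genes were called, and in the stress list Ddit3 alone (-0.61, adjusted p = 0.0223, edgeR).

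Markers of other tissues moved with the same groups. Shares of all genes called were 25.1% in e-cigarette versus air, 1.59% in smoke versus air and 16.5% in smoke versus e-cigarette. Of 15 fast skeletal muscle genes 11 were called higher in e-cigarette than in air and 0 lower (median log2 fold change 0.51), with Ckm, the muscle creatine kinase, at 0.61 and the fast myosin Myh4 at 0.72. Their summed level was 39525 to 51713 CPM in e-cigarette and 22429 to 38646 CPM in air, without overlap, and 30785 to 43687 CPM in smoke. Slow muscle genes had 1 of 7 called higher. Of 11 thyroid follicle genes, 8 were called lower and 1 higher, with summed levels of 143 to 29266 CPM in e-cigarette and 56956 to 98710 CPM in air. Tg itself did not pass the test (log2 fold change -2.88, SE 1.08, adjusted p = 0.0636, edgeR). Glandular genes had 7 of 11 and cartilage genes 3 of 11 called higher. Of brown fat genes, from a tissue dense in mitochondria, 0 of 6 were called, with sums of 155 to 328 CPM in e-cigarette and 210 to 272 in air. Squamous and ciliated cell genes had 1 of 9 and 1 of 10 called higher, and adipocyte genes 2 of 8 called lower. In smoke versus air, fast muscle had 0 of 15 and thyroid 0 of 11 called, ciliated genes 3 of 10 lower and glandular genes 3 of 11 higher. In smoke versus e-cigarette, 6 of 15 fast muscle genes were called lower and 8 of 11 thyroid genes higher, with 8 of 10 ciliated genes lower and 5 of 8 adipocyte and 3 of 6 brown fat genes higher.

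Muscle and thyroid content could not be separated from exposure for these transcripts. With a fast muscle score as a covariate the members' median log2 fold change in e-cigarette versus air was 0.42, against 0.49 without it, the typical SE was 0.28, and 1 member, mt-Te, was called (0.94, adjusted p = 0.0389, edgeR). With a thyroid score as a covariate the median was 0.16 and 0 members were called, the smallest adjusted p being 0.318. In a fit without e-cigarette replicates 2, 4, 5 and 6, those lowest in Tg, the median over the 24 members then tested was 0.32, 22 of 24 were above 0 and 0 were called, the smallest adjusted p being 0.109. This fit kept only e-cigarette replicates 1 and 3, so few libraries limit its calls. Tg was 2.69% and 2.77% of counts in these libraries and 6.13% to 10.2% in air. The counts of 15 and 9 called members in the 2 comparisons with e-cigarette libraries are thus those of the model without tissue scores and with all libraries. With total counts alone as library sizes they were 9 and 7, and with any single library left out 11 to 15 and 7 to 11. Calls over all genes also changed with the setting. They ran 15 to 9716 in e-cigarette versus air (4406 in the main fit) and 0 to 7085 in smoke versus e-cigarette (2897 in the main fit). A count of 0 or 1 called members in such a fit is therefore no result about the members alone. The part of muscle or thyroid content in the difference cannot be told apart from that of exposure.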

How the data were processed

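Whole larynges were profiled by RNA sequencing of 1 µg total RNA with an NEBNext Ultra RNA kit, per the labels' protocols. The submitters' processing notes name STAR, featureCounts 1.5.0-p3 and the builds GRCm38 and mm10. How strand and reads that match several places were handled is not given in the sources used here. The deposited table holds the authors' raw counts per gene and library. All 18 columns were mapped by title.

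Genes were kept with filterByExpr (minimum count 10, minimum total 15), which left 17537 of 54532. All 3 groups entered 1 edgeR model with no covariate (edgeR 4.0.16 in R 4.3.3; TMM normalization, robust quasi-likelihood F test), with Benjamini-Hochberg adjustment over all tested genes. SEs derive from the F statistic, and CPM uses TMM-scaled library sizes. Members' sequences were taken from GENCODE M21 transcripts (37 of 37 with the deposited length) and searched against its transcripts with blastn (at least 90% identity over 50 bases), since no genome sequence was used. Shared 100-base windows are exact matches on either strand. The edgeR test was also run on simulated counts with known changes. Those counts held no tissue differences between libraries, so that run does not bear on calls where tissue content differs.

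Members, comparisons and the 22 lists of nuclear genes and markers were chosen with earlier results of these data known. Values by library are given for the 12 members with the smallest adjusted p in any comparison, for the highest member per length of each kind and complex, and for mt-Nd6 and both rRNAs. From each list at most 4 called genes with the smallest p are named, plus 8 fixed genes (Polrmt, Tfam, Tfb2m, Tefm, Lrpprc, Slirp, Ppargc1a and Tg). Alternatives were DESeq2 1.42.0, voom with quality weights in limma 3.58.1, other scalings, no filter, fits of 2 groups, a replicate block, tissue scores and leaving out libraries. Within groups, each of 45 library pairs differed beyond sampling noise (chi-square over its degrees of freedom from 16.8 to 149).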

Additional observations from a re-analysis of the deposited data

Results flagged for a closer look

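In groups of 6 libraries, values were marked where the gap from the highest or lowest library to its neighbour exceeded Dixon's critical share of the group's range. Of 105 groups tested 20 were marked, where chance marks about 5% of independent groups. These groups were not independent, since sums and ratios reuse the counts of single members. The members were also chosen with earlier results known. The 20 marks can therefore not be set against that share, and the explanations were not tested.

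E-cigarette replicate 5 gave 6 of them. It was the highest of its group for mt-Nd3 (48.3 CPM, next 16.4) and mt-Tl1 (5.65 CPM, next 3.66). It was also highest for mt-Nd3 per 100 mt-Co3 counts (79.5, next 13.7) and for mt-Th, mt-Ts2 and mt-Tl2 per 10000 mRNA counts (3.63, next 0.247). It was lowest for mt-Co2 per 100 mt-Co1 counts (0.114, next 0.440) and for the share of the 6 low genes in mRNA counts (0.291%, next 0.633%). E-cigarette replicate 6 had the most mt-Nd6 per 100 mt-Nd5 counts in its group (39.2).

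Air replicate 5 was the highest air library for mt-Nd1 (6061 CPM), mt-Nd2 (4326), mt-Nd4 (4721) and mt-Cytb (9087), and for the sums of complex I (20642 CPM) and complex IV (22376 CPM). Air replicate 1 was highest for mt-Ty (5.04 CPM), and air replicate 6 lowest for mt-Atp8 (6.13 CPM).

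Smoke replicate 2 was highest in its group for mt-Rnr1 (647 CPM) and mt-Rnr2 (789 CPM), for rRNA counts per 100 mRNA counts (2.96) and for mt-Nd6 per 100 mt-Nd5 counts (40.8). Smoke replicate 3 was highest for mt-Cytb (8747 CPM).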

How the results depend on the processing

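In e-cigarette versus air, the 15 called members became 9 with total counts alone as library sizes (where the median of all genes shifts to -0.10), 2 (both lower) when scaled to mitochondrial mRNA, 1 with a muscle score, 0 with a thyroid score and 0 without e-cigarette replicates 2, 4, 5 and 6. The last of these fits kept only e-cigarette replicates 1 and 3. Without 1 library the called members ran 11 to 15. In smoke versus e-cigarette, the 9 became 0 under each of the last 4 of these settings and ran 7 to 11 without 1 library. In smoke versus air the count ran 0 to 1. Scaled to mitochondrial mRNA, where the mRNAs are the yardstick, 10 of 22 members changed sign in e-cigarette versus air, 10 in smoke versus e-cigarette and 7 in smoke versus air. The called ones among them were mt-Nd1 (-0.0155), mt-Nd4 (-0.0537), mt-Cytb (-0.0627) and mt-Tp (-0.187) in e-cigarette versus air, and mt-Co1 (0.0252), mt-Nd5 (0.0079) and mt-Cytb (0.0007) in smoke versus e-cigarette. With the thyroid score mt-Nd3 was -0.198 and 0.0381; the cause was not tested. The difference in mitochondrial share was 1.41 percentage points in e-cigarette versus air (0.90 to 1.84 under the other settings, 1.15 without e-cigarette replicate 5), -1.38 in smoke versus e-cigarette (-1.64 to -0.86) and 0.04 in smoke versus air (-0.10 to 0.44), where it changed sign in 5 of 12 settings without 1 library.

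Same-numbered libraries showed no common deviation (correlations -0.48 to 0.19 over 18 pairs, 4 above 0.1). This check cannot exclude a pairing by number, since other differences between libraries may hide it. A replicate block gave 12, 7 and 0 called members in e-cigarette versus air, smoke versus e-cigarette and smoke versus air. Over all genes, calls ran 39 to 1120 (279 in the main setting) in smoke versus air, 15 to 9716 (4406) in e-cigarette versus air and 0 to 7085 (2897) in smoke versus e-cigarette. Member counts of different settings therefore stand against unlike numbers of calls over all genes. For tRNAs with few counts, such as mt-Tw at 10 to 41 per smoke library, low counts limit the precision. mt-Tp had 999 to 1509 counts in the same libraries.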
